A study of Mus musculus with 16 samples.

Results

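The 32 macrophage and myeloid marker genes are a list of genes whose RNA is plentiful in monocytes, macrophages and their relatives. They were followed in libraries of sorted 4T07 mammary carcinoma cells, which should hold little of it. The members were chosen by symbol from 49139 genes with a symbol. All 32 were found, on 33 rows, because a second identifier also carries the symbol Itgam. They were Lyz2, Ctss, Laptm5, Cd68 and Cybb of the lysosome and phagosome, C1qa, C1qb and C1qc of complement, the Fc receptor and adaptor genes Fcgr1, Fcgr2b, Fcgr3, Fcer1g, Tyrobp and Trem2, the scavenger and pattern receptors Cd14, Cd33, Mrc1 and Msr1, Ptprc with the integrin genes Itgam and Itgb2, the receptors Csf1r, Cx3cr1 and Ccr2, the surface markers Adgre1, Ms4a7 and Ms4a6c, the secreted or metabolic products Apoe, Arg1 and Pf4, and the cytosolic or nuclear Aif1 and Spi1.

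Macrophages are phagocytes that arise from monocytes or from precursors settled in tissues before birth, and tumours often hold many of them. They take up dying cells and antibody-coated particles through scavenger and Fc receptors and break these down in lysosomes. They are a main source of C1q, which starts the classical complement pathway, and live on signals through the receptor encoded by Csf1r. Spi1 encodes PU.1, the transcription factor that sets up the myeloid programme. Ptprc encodes CD45, a surface phosphatase of leukocytes that carcinoma cells lack, and an antibody to CD45 was part of the sort.

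Cells of 4T07, a mouse line of mammary carcinoma, were grown as tumours in the mammary fat pad of C57BL/6J x Balb/cJ hybrid females. Day 7 GFP and day 15 GFP libraries came from GFP-transduced cells that survived PD1KO Jedi T cells, which carry a receptor for a peptide of GFP and lacked PD1, given on day 7 or day 15 of tumour growth. Day 7 mCherry and day 15 mCherry libraries came from the mCherry-transduced, untargeted cells of the same mixed tumours, begun from 250000 cells in equal parts and taken 7 days after the T cells. Control libraries were mCherry cells of tumours with no GFP cells and no Jedi T cells, for which no day of harvest is given in the sources used here. The groups held 3 libraries each and the controls 4, every library from a different tumour within its group, and all tumours share the 4T07 line and the hybrid host. Neither the age of the mice nor the gate set on the CD45 stain is stated in the labels.

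Libraries held 9412040 to 32808354 counts. Per the labels, run 1 held the 6 libraries of day 7 and run 2 the other 10, so that day and run cannot be told apart. Tumours carry the numbers of their columns, which are 2 to 4 for day 7, 1 to 3 for day 15 and 1 to 4 for the controls. The carcinoma genes Vim, Krt8, Krt18, Cdh1 and Epcam summed to 2359 to 5093 CPM per library, while 16 T and NK cell markers summed to 5.023 to 24.65 CPM. Vim made up most of the first sum, with group means of 2130 to 3532 CPM, while those of Epcam were 0.954 to 1.61 CPM. Lck made up most of the second, with group means of 4.56 to 14.2 CPM. Neither sum measures the purity of the sorted cells. CPM is the count of a gene per 1000000 counts of its library. In such bulk RNA, fewer cells of a type and less RNA per cell cannot be told apart.

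The markers were most abundant in day 7 mCherry cells. There 30 of the 32 had their highest group mean, Cd33 having its highest in the controls and Itgb2 in day 15 mCherry cells. The lowest group mean was that of day 15 GFP cells for 23 members, of day 15 mCherry cells for 6, of day 7 GFP cells for Cd14 and Cd33, and of day 7 mCherry cells for Itgb2. Summed over all members, the level ran from 278.3 to 421.6 CPM in day 7 GFP cells, against 1115 to 1720 CPM in day 7 mCherry cells. In run 2 it ran from 199.8 to 225.1 CPM in day 15 GFP cells, from 253.7 to 299.2 CPM in day 15 mCherry cells and from 273.5 to 549.6 CPM in the controls. Itgb2, Cd14 and Cd68 made up 70.3% to 83.9% of that sum in the 6 day 15 libraries, but 15.1% to 23.6% in day 7 mCherry cells. Without these 3, a choice made after their values were seen, the sum was 107.7 to 261.6 CPM in day 7 GFP cells against 851.5 to 1460 CPM in day 7 mCherry cells. On day 15 it was 34.0 to 46.97 CPM in GFP cells against 53.77 to 88.73 CPM in mCherry cells, and it was 103.5 to 349.2 CPM in the controls.

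Per kilobase of exon, the most abundant members of day 7 mCherry cells were Lyz2, at a mean of 282 CPM per kb, Apoe at 87.8, C1qb at 76.3 and Ctss at 69.2 CPM per kb. In day 15 GFP cells the order began with Itgb2 at 38.2 CPM per kb and Cd14 at 25.0, followed by Cd68 at 7.58 and Apoe at 6.95 CPM per kb. Adgre1, which encodes F4/80, had a mean of 0.0476 CPM per kb in day 15 GFP cells, 0.135 in day 15 mCherry cells and 0.350 CPM per kb in the controls. Members at 0 counts were few, at most 1 of the 32 in any library.

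**Figure D1:**
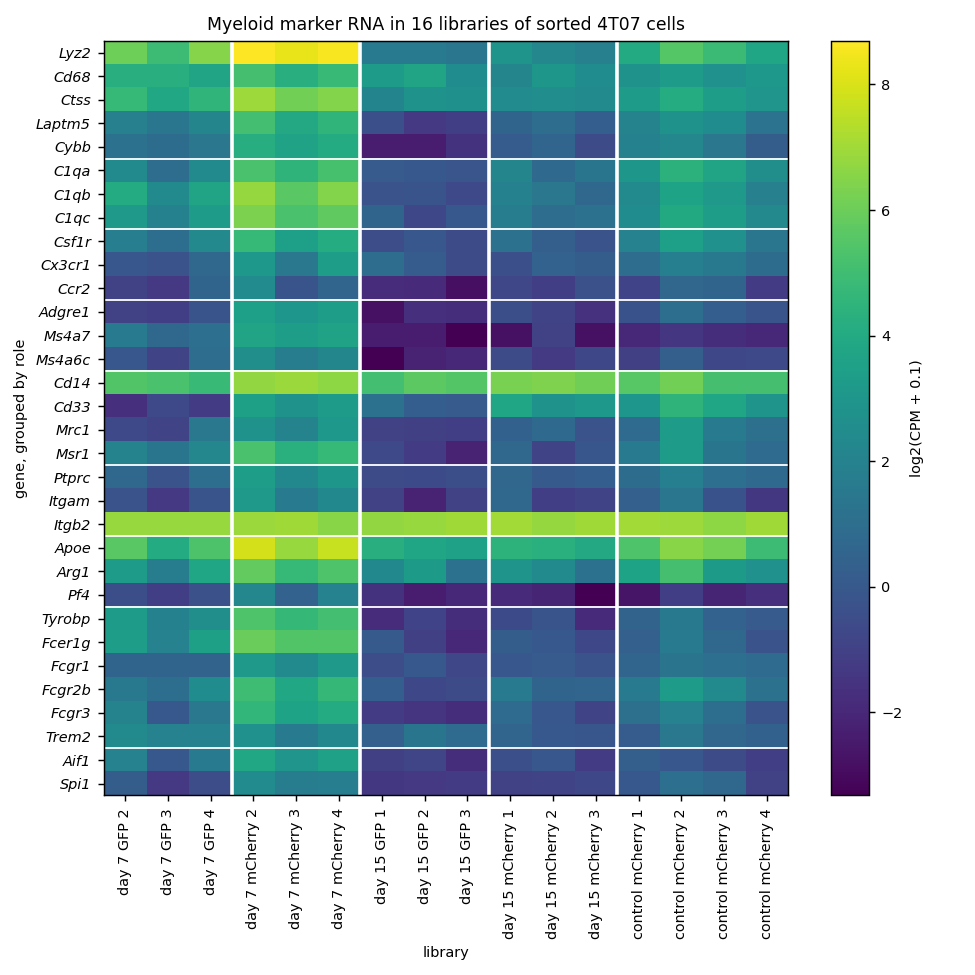
Level of each of the 32 members (rows) in each of the 16 libraries (columns, by group), as log2 of CPM plus 0.1. The group mean is highest in day 7 mCherry cells for 30 members and lowest in day 15 GFP cells for 23, while Itgb2 keeps 95.2 to 129 CPM in all 16.

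On day 7, GFP cells held far less myeloid RNA than the mCherry cells of the same tumours. Of 32 members 29 were lower and none was higher, while 9.33% of all 14578 genes tested were lower and 8.89% higher (edgeR quasi-likelihood test with tumour as a block, Benjamini-Hochberg adjusted p under 0.05). The 3 others were Itgb2, Trem2 and Ccr2. The median log2 fold change of the members was −2.51, where the median of all genes tested was −0.0037. In 28 members every GFP library lay below every mCherry library, a pattern found in 15.5% of all genes tested. Of the 32, 24 reached the expression filter in the 3 GFP libraries, of which 22 were lower, and 8 reached it through the mCherry libraries only, of which 7 were lower.

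The C1q genes, which lie side by side on chromosome 4, fell together. C1qa (chr4:136895917-136898803, GRCm38) had 5.21, 1.87 and 5.30 CPM in the GFP cells of tumours 2, 3 and 4, against 38.3, 22.2 and 36.5 CPM in the mCherry cells. C1qb (chr4:136880129-136886187) had 16.5, 5.24 and 13.0 CPM in GFP cells against 111, 49.4 and 88.5 CPM in mCherry cells. C1qc (chr4:136889804-136893065) had 8.71, 3.82 and 9.98 CPM in GFP cells against 79.6, 37.9 and 53.9 CPM in mCherry cells. No GFP library overlapped a mCherry library for any of the chains, and tumour 3 was lowest in both colours. The log2 fold changes were −3.05 ± 0.19 (SE), −2.92 ± 0.14 and −2.96 ± 0.18, that is 8.27-fold, 7.55-fold and 7.79-fold lower in GFP cells. The adjusted p of the edgeR quasi-likelihood test was 1.47e-05 for C1qa, 3.82e-06 for C1qb and 1.01e-05 for C1qc.

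Lysosomal genes were lower in GFP cells, Cd68 by the least. Lyz2, which encodes the lysozyme of myeloid cells, had 65.6, 29.9 and 91.2 CPM in the GFP cells of tumours 2, 3 and 4, against 415, 314 and 386 CPM in mCherry cells. Ctss, the lysosomal protease cathepsin S, had 26.6, 14.9 and 22.8 CPM in GFP cells against 124, 69.3 and 88.9 CPM in mCherry cells. Laptm5, a lysosomal membrane protein of blood cells, had 3.72, 2.54 and 4.33 CPM in GFP cells against 34.5, 15.1 and 23.3 CPM in mCherry cells. All 3 were lower in every GFP library. Their log2 fold changes were −2.72 ± 0.20 (SE), −2.15 ± 0.11 and −2.75 ± 0.20. Cybb, the catalytic subunit of the phagocyte NADPH oxidase, averaged 2.18 ± 0.412 CPM in GFP cells, against 15.6 ± 3.19 CPM in mCherry cells (SD, n = 3 each), a log2 fold change of −2.84 ± 0.21 (SE). Cd68, a glycoprotein of late endosomes and lysosomes, had 19.3, 18.3 and 13.0 CPM in GFP cells against 35.7, 18.9 and 27.5 CPM in mCherry cells. Its highest GFP library lay above its lowest mCherry library. Its log2 fold change was −0.69 ± 0.20 (SE) with an adjusted p of 0.0421 by edgeR. The adjusted p was 0.0918 without tumour 2, 0.0632 without tumour 4, 0.0565 with counts thinned to the smallest library and 0.0693 without the tumour block.

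Among the Fc receptors and their adaptors, 5 of 6 fell. Fcer1g, the signalling gamma chain of several Fc receptors, had 10.3, 3.97 and 11.4 CPM in the GFP cells of tumours 2, 3 and 4, against 61.4, 43.3 and 43.3 CPM in mCherry cells. Tyrobp, the adaptor DAP12, had 9.88, 3.82 and 6.05 CPM in GFP cells against 42.1, 25.7 and 34.0 CPM in mCherry cells. Fcgr2b, the inhibitory IgG receptor, had 2.76, 1.95 and 5.57 CPM in GFP cells against 30.7, 14.6 and 25.4 CPM in mCherry cells. None of these overlapped between the colours. The log2 fold changes were −2.61 ± 0.23 (SE) for Fcer1g, −2.45 ± 0.18 for Tyrobp and −2.81 ± 0.24 for Fcgr2b. The activating IgG receptors Fcgr1 and Fcgr3 had log2 fold changes of −2.47 ± 0.28 and −2.91 ± 0.25. Trem2, a lipid-binding receptor that signals through DAP12, averaged 4.33 ± 0.668 CPM in GFP cells, against 4.84 ± 1.89 CPM in mCherry cells (SD, n = 3 each). Its log2 fold change was −0.13 ± 0.26 (SE, adjusted p = 0.775, edgeR), and its ranges overlapped.

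The scavenger and pattern receptors held the deepest fall of the list. Cd33, a sialic acid-binding receptor, had 0.213, 0.524 and 0.344 CPM in the GFP cells of tumours 2, 3 and 4, against 11.4, 6.84 and 9.89 CPM in mCherry cells. It rested on 2 to 7 counts per GFP library and is among the 8 members that reached the expression filter through the mCherry libraries only, where it was high. The log2 fold change was −4.60 ± 0.37 (SE), 24.3-fold lower, with an adjusted p of 4.26e-05 by edgeR. Msr1, scavenger receptor A, had 4.04, 2.47 and 4.61 CPM in GFP cells against 37.3, 20.0 and 26.3 CPM in mCherry cells, a log2 fold change of −2.91 ± 0.19. Cd14, the co-receptor for lipopolysaccharide, had 43.5, 37.5 and 28.1 CPM in GFP cells against 107, 117 and 102 CPM in mCherry cells. Its log2 fold change was −1.62 ± 0.13 (SE, adjusted p = 5.07e-05, edgeR), with no overlap between the colours. Mrc1, the mannose receptor, averaged 1.24 ± 1.31 CPM in GFP cells, against 6.47 ± 2.22 CPM in mCherry cells (SD, n = 3 each), a log2 fold change of −2.54 ± 0.39 (SE).

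CD45 and the integrins split. Ptprc had 1.59, 0.748 and 1.93 CPM in the GFP cells of tumours 2, 3 and 4, against 10.5, 4.81 and 8.11 CPM in mCherry cells, with no overlap. Its log2 fold change was −2.47 ± 0.27 (SE, adjusted p = 0.000254, edgeR). Itgam, the alpha M chain that pairs with the product of Itgb2 to form the complement receptor CR3, averaged 0.600 ± 0.260 CPM in GFP cells, against 5.55 ± 2.91 CPM in mCherry cells (SD, n = 3 each), a log2 fold change of −3.16 ± 0.34 (SE). Itgb2, the beta 2 chain shared by the leukocyte integrins, had 116, 115 and 113 CPM in GFP cells against 118, 127 and 95.2 CPM in mCherry cells. The colours overlapped, and the log2 fold change was 0.01 ± 0.10 (SE, adjusted p = 0.968, edgeR) and −0.07 without tumour 4. Over all 16 libraries, the highest Itgb2 level was 1.36 times the lowest, while Ptprc spanned 18.8-fold and Itgam 68.0-fold.

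Of the receptors for growth factors and chemokines, Csf1r had 3.40, 1.95 and 4.88 CPM in the GFP cells of tumours 2, 3 and 4, against 26.6, 10.8 and 17.5 CPM in mCherry cells. All GFP libraries lay lower, and the log2 fold change was −2.41 ± 0.24 (SE). Cx3cr1, the receptor for fractalkine, averaged 1.04 ± 0.416 CPM in GFP cells, against 7.31 ± 4.13 CPM in mCherry cells (SD, n = 3 each), a log2 fold change of −2.73 ± 0.32 (SE). Ccr2, the receptor that draws monocytes from the blood, ranged from 0.299 to 1.38 CPM in GFP cells and from 0.760 to 5.46 CPM in mCherry cells. Its ranges overlapped, with a log2 fold change of −1.57 ± 0.61 (SE, adjusted p = 0.105, edgeR). Without tumour 4 that p was 0.00292, at a log2 fold change of −2.76. The surface marker Adgre1 ranged from 0.374 to 0.757 CPM in GFP cells and from 7.85 to 10.9 CPM in mCherry cells, and was 18.3-fold lower (log2 fold change −4.19 ± 0.30, SE). Like Cd33 it reached the filter through the mCherry libraries only, as did Mrc1, Itgam, Ccr2, Ms4a6c, Pf4 and Spi1. Ms4a7 and Ms4a6c had log2 fold changes of −2.48 ± 0.24 and −2.18 ± 0.37.

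Secreted and metabolic products fell as well. Apoe, the apolipoprotein E that macrophages release, had 49.7, 16.8 and 40.9 CPM in the GFP cells of tumours 2, 3 and 4, against 239, 115 and 209 CPM in mCherry cells. Arg1, the arginine-degrading enzyme of some tumour macrophages, had 9.56, 3.37 and 13.6 CPM in GFP cells against 56.0, 26.2 and 42.0 CPM in mCherry cells. Every GFP library of both genes was lower, with log2 fold changes of −2.47 ± 0.12 (SE) for Apoe and −2.34 ± 0.22 for Arg1. Pf4, a chemokine known from platelets, had a log2 fold change of −2.44 ± 0.39, Aif1, the actin-binding protein Iba1, −2.24 ± 0.27 and Spi1 −2.67 ± 0.36.

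**Figure D2:**
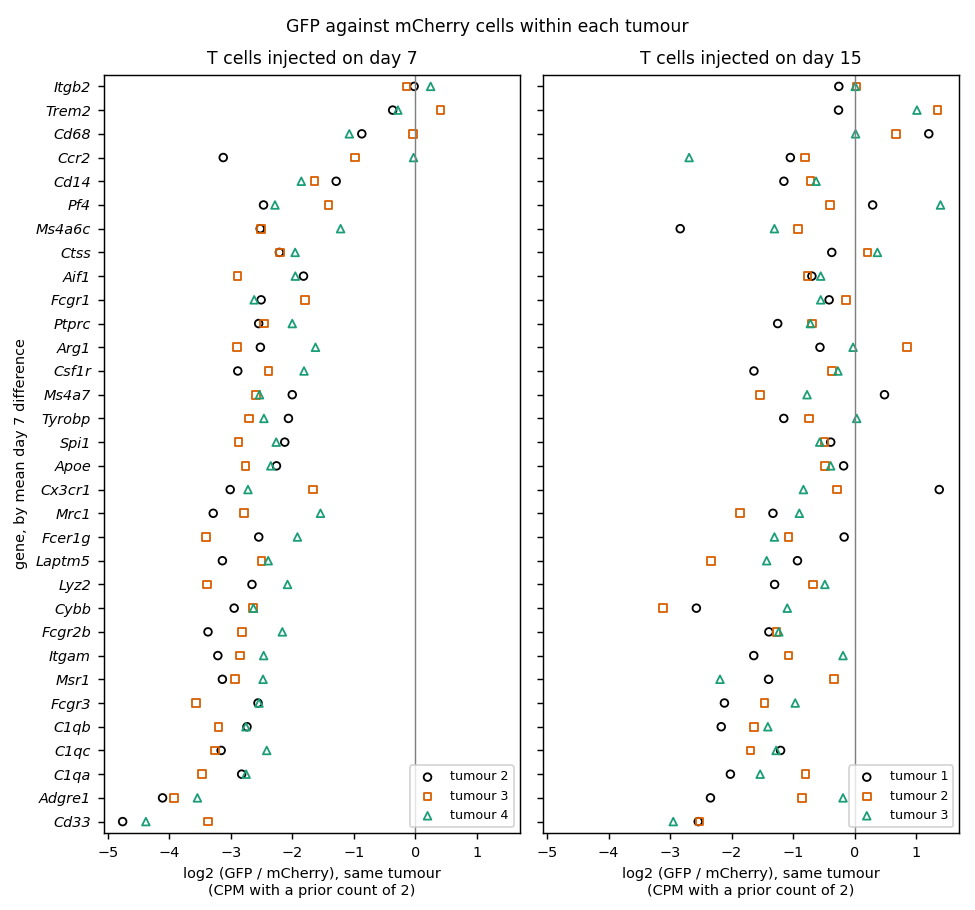
Log2 difference of CPM, GFP minus mCherry cells of the same tumour, for each member (rows) in each of the 3 tumours per day (points; prior count of 2). The medians over the members lie at −2.55, −2.73 and −2.27 in day 7 tumours 2, 3 and 4, and at −1.15, −0.75 and −0.67 in day 15 tumours 1, 2 and 3.

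The promoters of 23 members had an entry among the RefSeq promoter sequences (GRCm38.p6), which run from 250 bases before to 50 bases after a transcription start. PU.1 binds sites with a GGAA core, and the PU box GAGGAA, read on both strands (TTCCTC on the other), was searched in these windows. It was present for 17 of the 23 members (73.9%), taking every window of a gene, against 31.3% of 27025 genes. The longer GAGGAAGT, which contains it, was present for C1qc, Ctss and Pf4 (13% of the 23) against 3.69% of all genes. The 250 bases before the start are given 5′ to 3′ on the strand of the gene, with the PU box in capitals. C1qb and C1qc are shown because they moved together, Cd33 because it fell most, and Cd68 because its fold change was smallest among the members that fell on day 7. C1qb lies at chr4:136886201-136886450, C1qc at chr4:136892915-136893164, Cd33 at chr7:43533172-43533421 and Cd68 at chr11:69666171-69666420, all on the minus strand.
C1qb: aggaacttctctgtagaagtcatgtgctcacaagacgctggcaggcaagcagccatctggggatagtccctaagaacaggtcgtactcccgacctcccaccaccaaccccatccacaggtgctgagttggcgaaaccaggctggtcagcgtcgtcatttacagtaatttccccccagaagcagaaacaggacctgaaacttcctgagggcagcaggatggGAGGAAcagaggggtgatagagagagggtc
C1qc: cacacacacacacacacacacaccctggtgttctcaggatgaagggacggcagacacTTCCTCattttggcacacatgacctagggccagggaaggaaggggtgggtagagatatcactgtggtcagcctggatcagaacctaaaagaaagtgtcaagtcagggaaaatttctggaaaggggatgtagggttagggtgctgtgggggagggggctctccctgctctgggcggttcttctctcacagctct
Cd33: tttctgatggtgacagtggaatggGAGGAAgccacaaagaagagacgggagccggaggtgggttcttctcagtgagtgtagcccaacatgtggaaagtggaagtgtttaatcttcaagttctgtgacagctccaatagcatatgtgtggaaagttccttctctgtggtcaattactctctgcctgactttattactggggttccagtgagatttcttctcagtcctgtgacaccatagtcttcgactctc
Cd68: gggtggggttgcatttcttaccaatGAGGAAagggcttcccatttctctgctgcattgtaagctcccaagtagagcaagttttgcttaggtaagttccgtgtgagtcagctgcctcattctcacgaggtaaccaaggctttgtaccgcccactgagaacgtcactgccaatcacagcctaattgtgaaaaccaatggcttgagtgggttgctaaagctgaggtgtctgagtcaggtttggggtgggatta
Each window holds the box once, for C1qc in the reversed form. The match was present in genes that fell deeply and in Cd68 alike, and describes letters only, not binding.

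On day 15 the GFP cells again held less of several markers, among them the C1q genes, Cd33 and Cd14. Of the 32 members 24 passed the expression filter. Of these, 11 were lower, none was higher and 13 did not pass the test, while 10.6% of all 14260 genes tested were lower and 8.94% higher (edgeR with tumour as a block). Of the 17 members that reached the filter in the GFP libraries 7 were lower, and of the 7 that reached it through mCherry cells only, 4 were. All 11 were also among the 29 of day 7, which makes 100% of the day 15 list and 37.9% of the day 7 list. Of the 24 members tested, only Itgb2 and Trem2 were not among those 29. An overlap near 100% was thus almost fixed in advance and cannot show agreement of the days. In 12 of the 24 tested members every GFP library lay below every mCherry library, against 20.9% of all genes tested. Adgre1, Ms4a7, Ms4a6c, Tyrobp, Itgam, Spi1, Ccr2 and Pf4 were too low to be tested.

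The C1q genes were lower on this day too. C1qa had 0.991, 0.902 and 0.804 CPM in the GFP cells of tumours 1, 2 and 3, against 4.32, 1.63 and 2.47 CPM in mCherry cells. C1qb had 0.755, 0.773 and 0.523 CPM in GFP cells against 3.73, 2.58 and 1.51 CPM in mCherry cells. C1qc had 1.37, 0.515 and 0.884 CPM in GFP cells against 3.28, 1.85 and 2.24 CPM in mCherry cells. No GFP library reached the lowest mCherry library of any chain. The log2 fold changes were −1.53 ± 0.33 (SE), −1.84 ± 0.32 and −1.42 ± 0.31, with adjusted p of 0.00942, 0.0035 and 0.0102 by edgeR. These rest on 12 to 29 counts per GFP library. Summed, the C1q genes gave 2.189 to 3.116 CPM in day 15 GFP cells against 6.06 to 11.33 CPM in day 15 mCherry cells, and 10.92 to 30.39 CPM in day 7 GFP cells against 109.5 to 229.0 CPM in day 7 mCherry cells.

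Cd33 again had the lowest estimate, close to that of Cybb. It had 2.22, 1.12 and 1.01 CPM in the GFP cells of tumours 1, 2 and 3, against 13.4, 6.83 and 8.29 CPM in mCherry cells. All GFP libraries were lower, and the log2 fold change was −2.71 ± 0.21 (SE, adjusted p = 4.72e-05, edgeR). Cybb ranged from 0.0859 to 0.241 CPM in GFP cells and from 0.596 to 1.40 CPM in mCherry cells, a log2 fold change of −2.70 ± 0.59. Cd14 had 34.6, 50.8 and 44.3 CPM in GFP cells against 76.9, 83.5 and 68.5 CPM in mCherry cells, with no overlap and a log2 fold change of −0.80 ± 0.10 (SE, adjusted p = 0.0007, edgeR). Laptm5 had 0.661, 0.301 and 0.362 CPM in GFP cells against 1.35, 1.85 and 1.10 CPM in mCherry cells, a log2 fold change of −1.67 ± 0.43. Fcgr2b had 1.09, 0.515 and 0.563 CPM in GFP cells against 3.01, 1.36 and 1.42 CPM in mCherry cells, a log2 fold change of −1.37 ± 0.33. Every GFP library of these genes lay below the mCherry libraries. Fcgr3 and Mrc1 had log2 fold changes of −1.81 ± 0.46 and −1.53 ± 0.41, and Lyz2, with 2.88, 2.92 and 2.57 CPM in GFP cells against 7.24, 4.70 and 3.62 CPM in mCherry cells, had −0.82 ± 0.23. C1qb, Cd33 and Cd14 passed the test in every alternative run that could test them, as did Cybb. Cybb, Laptm5, Fcgr3 and Mrc1 are the 4 that reached the filter through the mCherry libraries only. Without tumour 1 the calls of Lyz2, Fcgr2b and Fcgr3 were lost (adjusted p of 0.128, 0.0501 and 0.128), without tumour 2 those of Mrc1 and Laptm5 (0.167 and 0.119), and without tumour 3 those of Mrc1, Laptm5 and Fcgr2b (0.0527, 0.0684 and 0.0597).

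Several members that were lower in GFP cells on day 7 did not pass on day 15. Apoe had 18.9, 14.0 and 11.7 CPM in the GFP cells of tumours 1, 2 and 3, against 21.4, 19.6 and 15.4 CPM in mCherry cells, a log2 fold change of −0.33 ± 0.13 (SE, adjusted p = 0.1, edgeR). Ctss had 4.25, 6.87 and 6.55 CPM in GFP cells against 5.53, 5.92 and 5.04 CPM in mCherry cells, with a log2 fold change of 0.11 ± 0.19. Arg1 had 4.86, 9.23 and 2.17 CPM in GFP cells against 7.24, 5.07 and 2.20 CPM in mCherry cells, with 0.14 ± 0.26. Apoe, Ctss and Arg1 overlapped between the colours. Ptprc had 0.567, 0.558 and 0.643 CPM in GFP cells against 1.48, 0.950 and 1.10 CPM in mCherry cells, which did not overlap, at −0.95 ± 0.37 (adjusted p = 0.105, edgeR). Csf1r had 0.614, 0.859 and 0.603 CPM in GFP cells against 2.11, 1.13 and 0.733 CPM in mCherry cells, an overlap, at −0.82 ± 0.41. Msr1 (−1.46, adjusted p = 0.0691, edgeR), Fcer1g (−0.83), Aif1 (−0.77), Fcgr1 (−0.36), Cx3cr1 (0.15) and Itgb2 (−0.05) did not pass either. For Msr1 the adjusted p was 0.0166 without tumour 2.

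Cd68 and Trem2 were the members with the highest estimates in GFP cells. Cd68 had 9.96, 12.9 and 5.71 CPM in the GFP cells of tumours 1, 2 and 3, against 4.27, 8.10 and 5.63 CPM in mCherry cells. The GFP library was above the mCherry library of its tumour in all 3, while the ranges overlapped. The log2 fold change was 0.67 ± 0.22 (SE, adjusted p = 0.0617, edgeR), 0.96 with an adjusted p of 0.0178 without tumour 3, and 0.67 with an adjusted p of 0.00117 when genes of low count were kept in the fit. Trem2 averaged 1.80 ± 0.634 CPM in GFP cells, against 1.06 ± 0.334 CPM in mCherry cells (SD, n = 3 each), a log2 fold change of 0.78 ± 0.38 (SE, adjusted p = 0.186). Without tumour 1 it was 1.27 with an adjusted p of 0.0283.

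**Figure D3:**
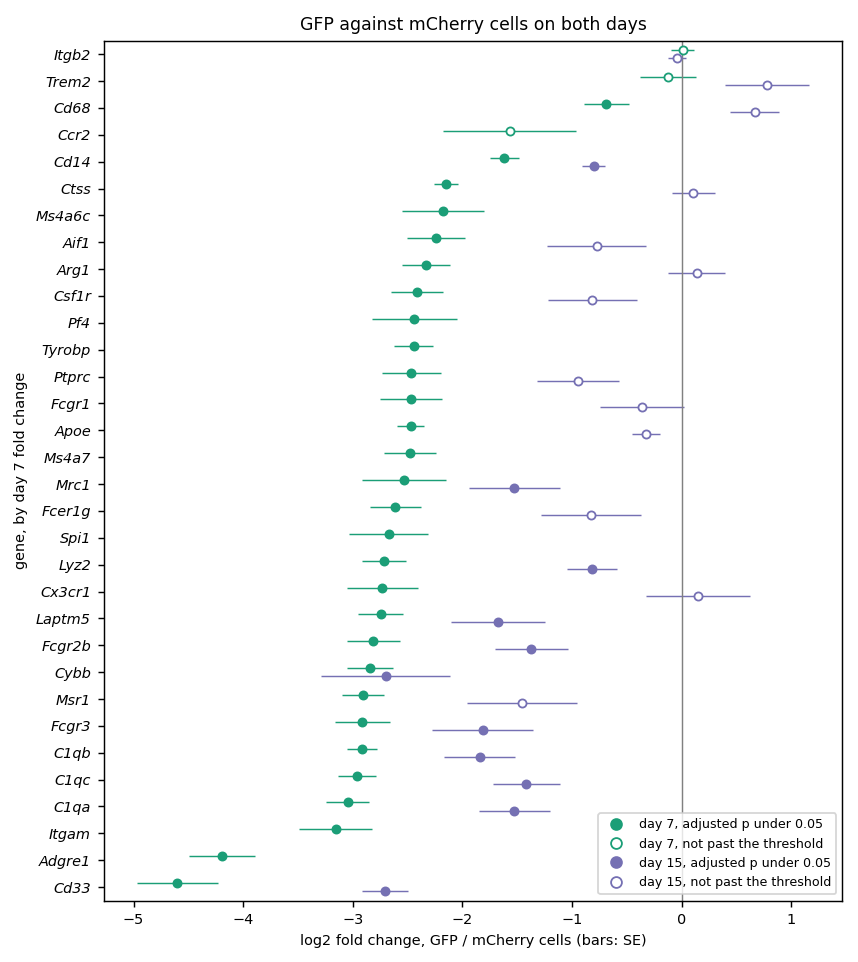
Log2 fold change of GFP over mCherry cells (x axis, bars are SE) for each member (rows, ordered by day 7), on day 7 and day 15. Filled points passed an adjusted p of 0.05 by edgeR, open points did not, and 8 members have no day 15 point because they were not tested.

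Whether the difference between the colours changed with the day was tested directly, as the day 15 log2 fold change minus that of day 7, in a fit of the 12 libraries of mixed tumours. Apoe (2.15 ± 0.17, SE, adjusted p = 0.000277) and Ctss (2.26 ± 0.20, adjusted p = 0.000377) passed upward by the edgeR quasi-likelihood test. So did Arg1 (2.48 ± 0.37, adjusted p = 0.0253) and Lyz2 (1.89 ± 0.32, adjusted p = 0.0354). Apoe and Lyz2 had the smaller deficit on day 15, while the day 15 estimates of Ctss (0.11) and Arg1 (0.14) showed no deficit. Of all 16626 genes tested, 0.102% passed upward and 0.108% downward. No member passed downward, and 28 did not pass. Of those, 20 had an unadjusted p under 0.05, all with a positive estimate, against 742 positive and 961 negative among all 16626 genes. The 20 members include Cx3cr1 (2.88 ± 0.61, adjusted p = 0.096), C1qc (1.57 ± 0.32, adjusted p = 0.0777) and Cd68 (1.35 ± 0.33, adjusted p = 0.134). The member estimates had a median of 1.52, where the median of all genes was −0.0115. Which members passed depends on the model: DESeq2 passed 12, edgeR without a filter on low counts 16, edgeR without the tumour block 1, and leaving out a tumour 2 to 6. Lyz2 and Arg1 did not pass without day 7 tumour 2, nor without any of the 3 day 15 tumours.

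Day 15 mCherry cells, the untargeted neighbours of the surviving GFP cells, were compared with the mCherry cells of control tumours. No member of the 30 tested passed, nor did any of all 14800 genes (0%), the smallest adjusted p being 0.251 by edgeR. Unadjusted, 19 members lay lower at a p under 0.05 and Cd14 higher, against 957 lower and 1147 higher among all genes. DESeq2 passed Lyz2, C1qa, C1qb, C1qc, Csf1r, Apoe and Ctss as lower and Cd14 as higher, of the 12 members to which it gave an adjusted p. In 14 of the 30 tested members every day 15 mCherry library lay below every control, against 8.11% of all genes tested. The median log2 fold change was −1.32, and that of all genes tested was −0.0049.

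The values behind this are those of day 15 mCherry cells given above and those of the controls. Lyz2 had 15.99, 46.1, 29.4 and 13.6 CPM in controls 1 to 4, and C1qb had 5.18, 12.6, 8.97 and 3.61 CPM. C1qa had 8.23, 21.2, 13.0 and 5.95 CPM and C1qc 5.62, 15.9, 10.5 and 4.93 CPM in the controls. Lyz2 and C1qc of day 15 mCherry cells lay below all controls, whereas C1qb overlapped by a single library of each group. Apoe had 41.1, 93.3, 72.0 and 30.0 CPM in the controls, Csf1r 3.93, 10.8, 6.76 and 2.54 CPM and Ctss 10.0, 17.4, 10.3 and 7.59 CPM. The log2 fold changes were −2.32 ± 0.45 (SE) for Lyz2, −2.09 ± 0.48 for C1qa, −1.52 ± 0.46 for C1qb, −1.89 ± 0.43 for C1qc, −2.16 ± 0.54 for Csf1r, −1.63 ± 0.36 for Apoe and −1.02 ± 0.26 for Ctss. Cd14 had 47.9, 69.3, 35.0 and 35.7 CPM in the controls, and its log2 fold change of 0.72 ± 0.22 (SE, adjusted p = 0.263, edgeR) was the largest positive estimate of the list. Cd33 had 7.76, 22.3, 13.1 and 7.39 CPM in the controls, overlapping day 15 mCherry cells, with a log2 fold change of −0.39 ± 0.40. Ptprc had 1.82, 3.60, 2.02 and 1.60 CPM in the controls and a log2 fold change of −0.92 ± 0.34.

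Control tumours differed among themselves. Control 2 was the highest of the 4 for 30 of the 32 members, with Msr1 at 3.14, 9.78, 2.45 and 1.77 CPM and Arg1 at 12.6, 36.0, 9.28 and 6.57 CPM in controls 1 to 4. The 12 endothelial markers moved with it, summing to 35.25, 147.4, 49.58 and 54.62 CPM in controls 1 to 4. The 12 neutrophil markers did too, at 3.99, 15.21, 2.319 and 1.313 CPM. So did the 12 fibroblast markers, at 1455, 3027, 1568 and 1718 CPM. The sum of the carcinoma genes, most of it Vim, was also highest in control 2, at 3888, 5093, 4644 and 4532 CPM. The 11 genes of dendritic cells and MHC class II had their lowest sum in control 2, at 1169, 115.0, 223.7 and 717.5 CPM in controls 1 to 4. The part of these lists in the result was not tested. Without control 2 no member passed against day 15 mCherry cells either.

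Day 15 GFP cells stood further below the controls. Of 30 members tested 20 were lower and none was higher, while 6.97% of all 14801 genes tested were lower and 6.09% higher (edgeR, no block). In 21 of the 30 tested members no GFP library reached the lowest control, against 19.5% of all genes tested. C1qa was 13.0-fold lower (−3.70 ± 0.47, SE, log2), C1qb 10.7-fold (−3.42 ± 0.48), Lyz2 9.08-fold (−3.18 ± 0.44), Laptm5 10.4-fold (−3.38 ± 0.47) and Cybb 19.9-fold (−4.31 ± 0.64). Cd33, Csf1r and Ptprc had log2 fold changes of −3.09 ± 0.48, −3.06 ± 0.52 and −1.88 ± 0.35. The 10 that did not pass were Cd68 (0.33), Trem2 (0.20), Itgb2 (0.02), Cd14 (−0.07), Ctss (−0.89), Aif1 (−1.05), Cx3cr1 (−1.07), Arg1 (−1.53), Fcer1g (−1.65) and Itgam (−1.83). This comparison shares its controls with that of day 15 mCherry cells and its GFP libraries with the day 15 comparison of the colours. Only 17 of the 30 members reached the filter in GFP cells, of which 10 were lower. The count of 20 was 7 without the GFP library of tumour 1, 10 without that of tumour 2 and 9 without that of tumour 3. The 7 members that passed in every alternative that tested them were Lyz2, C1qa, C1qb, C1qc, Cd33, Laptm5 and Cybb, of which Laptm5 and Cybb reached the filter through the controls only.

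The members did not keep a fixed proportion to Ptprc. Cd33 counts were 0.133 to 0.700 times those of Ptprc in day 7 GFP cells, against 1.09 to 1.42 times in day 7 mCherry cells. On day 15 the ratio was 1.56 to 3.92 in GFP cells against 7.19 to 9.03 in mCherry cells, and it was 4.26 to 6.50 in the controls. GFP cells thus had less Cd33 per Ptprc than mCherry cells in every library of both days. The ratios of Itgb2, Cd68 and Trem2 were higher in GFP cells. For Itgb2, with similar CPM in both colours, this restates the lower Ptprc. Itgb2 counts were 58.7 to 153 times those of Ptprc in day 7 GFP cells against 11.3 to 26.3 times in day 7 mCherry cells, and 191 to 206 times in day 15 GFP cells against 87.2 to 119 times in day 15 mCherry cells. Trem2 counts were 2.04 to 5.30 times those of Ptprc in day 7 GFP cells against 0.591 to 0.646 times in day 7 mCherry cells, and 2.08 to 4.39 times in day 15 GFP cells against 0.750 to 0.970 times in day 15 mCherry cells. These ratios are descriptions and were not tested. They rest on few counts. Per library, Ptprc had 10 to 28 counts in day 7 GFP cells and 12 to 16 in day 15 GFP cells. Cd33 had 2 to 7 counts in day 7 GFP cells.

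Other ratios separated the runs more than the colours. Tyrobp counts were 3.14 to 6.20 times those of Ptprc in day 7 GFP cells and 4.02 to 5.34 times in day 7 mCherry cells, but 0.313 to 0.769 times in day 15 GFP cells, 0.167 to 0.810 times in day 15 mCherry cells and 0.615 to 0.771 times in the controls. Fcer1g gave 5.30 to 6.47 and 5.33 to 9.00 on day 7, against 0.250 to 1.67 in day 15 GFP cells, 0.458 to 0.952 in day 15 mCherry cells and 0.462 to 0.805 in the controls. Lyz2 gave 40.0 to 47.3 in day 7 GFP cells and 39.6 to 65.2 in day 7 mCherry cells, 4.00 to 5.23 and 3.29 to 4.95 in day 15 GFP and mCherry cells, and 8.51 to 14.6 in the controls. Tyrobp, Fcer1g and Lyz2 all had ratios in run 1 above every ratio of run 2.

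**Figure D4:**
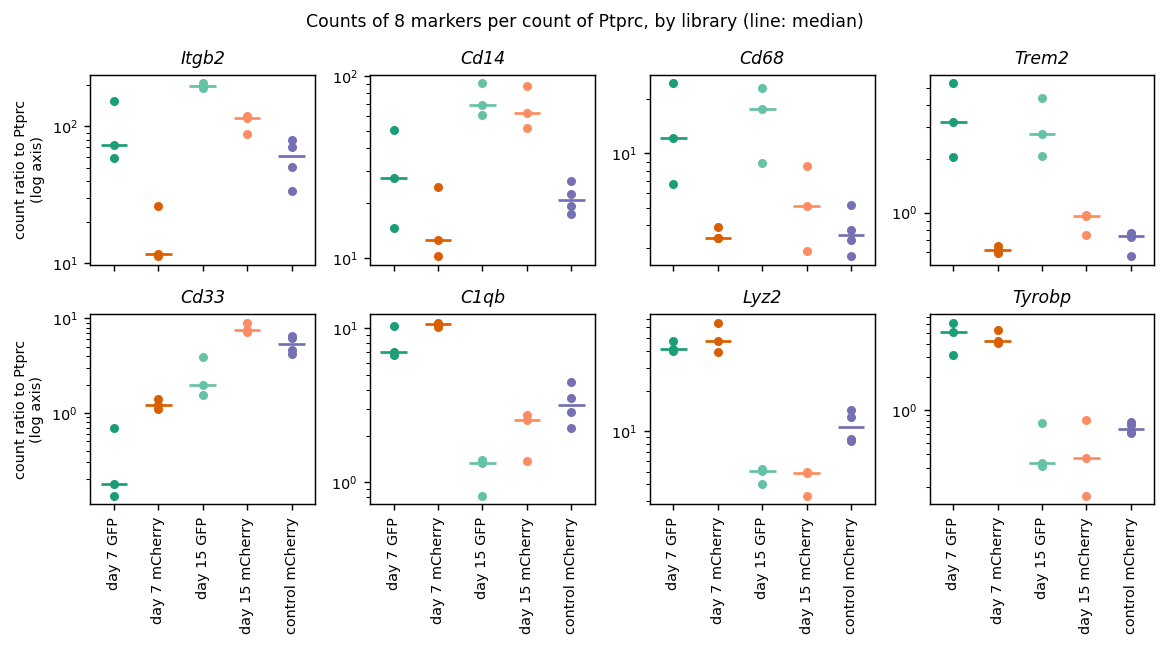
Counts of 8 members over those of Ptprc (log axis) in each library (points), by group. Cd33 lies lower in GFP than in mCherry cells on both days, Itgb2, Cd68 and Trem2 lie higher, and Tyrobp and Lyz2 lie higher in the 6 day 7 libraries than in the 10 libraries of run 2.

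Among a further 60 myeloid genes, most of those tested were lower on day 7, but their summed level was not. Most of that sum in the GFP cells of both days was Gpnmb alone, whose values follow below, so the sum does not describe the list as a whole. The sum was 598.0 to 1052 CPM in day 7 GFP cells against 583.2 to 800.0 CPM in day 7 mCherry cells. On day 15 it was higher in GFP cells, at 596.7 to 614.5 CPM against 285.6 to 364.4 CPM in mCherry cells. On day 7, 53 were tested, of which 37 were lower in GFP cells and 4 higher, at a median log2 fold change of −2.02. Ctsc, a lysosomal protease (−3.07), and Lcp1, an actin-bundling protein of leukocytes (−2.26), had the smallest p. The 4 higher genes, named after their values were seen, were Gpnmb (1.65 ± 0.19, SE), Mpeg1 (1.35 ± 0.12), Irf8 (0.84 ± 0.16) and Tlr2 (0.53 ± 0.12). On day 15, 26 were tested, of which 8 were lower, 15 did not pass and 3 were higher. The higher ones were Mpeg1 (1.74 ± 0.19), Gpnmb (1.48 ± 0.17) and Siglec1 (0.96 ± 0.24). Gpnmb, a glycoprotein of macrophages and melanocytes, averaged 572.9 CPM in day 7 GFP cells against 173.3 CPM in day 7 mCherry cells. It averaged 436.0 CPM in day 15 GFP cells against 162.4 CPM in day 15 mCherry cells and 166.1 CPM in the controls. Mpeg1, the pore-forming perforin-2 of macrophages, averaged 69.5 CPM in day 7 GFP cells against 26.7 CPM in day 7 mCherry cells, and 59.1 CPM in day 15 GFP cells against 19.2 CPM in day 15 mCherry cells. Against the controls, 24 of 42 tested were lower in day 15 GFP cells and Gpnmb alone was higher (1.45 ± 0.12). Of 41 tested in day 15 mCherry cells against the controls, none passed.

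Markers of another stromal cell type moved with the myeloid ones. All 10 endothelial markers tested of 12 were lower in day 7 GFP cells, at a median log2 fold change of −3.44, and 5 of 12 were lower in day 15 GFP cells, with a median of −1.02. Their sum was 18.33 to 19.66 CPM in day 7 GFP cells against 52.13 to 89.32 CPM in day 7 mCherry cells. It was 23.56 to 32.8 CPM in day 15 GFP cells against 38.4 to 72.23 CPM in day 15 mCherry cells, and 35.25 to 147.4 CPM in the controls. Of these markers 2 were at 0 in each day 7 GFP library (Cldn5 and Tek, Cdh5 and Emcn, and Tek and Tie1) and none in any other library. Of 12 fibroblast markers, 2 of 9 tested were lower on day 7 and 4 of 11 lower with Dcn higher on day 15, and their sums overlapped between the colours on both days. Dcn and Pdgfra made up most of these sums, with means of 715.7 and 636.3 CPM in day 15 GFP cells. The collagen genes Col1a1, Col1a2 and Col3a1 averaged 20.4, 6.01 and 18.4 CPM there, against 126.3, 69.7 and 108.1 CPM in day 15 mCherry cells. T and NK cell markers gave 12.05 to 24.65 CPM in day 7 GFP cells against 11.59 to 20.43 CPM in day 7 mCherry cells, and none of the 2 tested passed. Most of these sums was Lck, at means of 14.2 and 12.6 CPM, while Cd3e averaged 0.760 and 0.392 CPM. Of 12 neutrophil markers 3 were tested on each day. S100a8, a calcium-binding protein plentiful in neutrophils, was lower in day 7 GFP cells (−1.37), and on day 15 both S100a8 (−1.97) and its partner S100a9 (−1.59) were. The neutrophil sums overlapped between the colours, at 5.779 to 13.39 CPM in day 7 GFP cells against 10.89 to 39.9 CPM in day 7 mCherry cells, and 1.527 to 4.249 CPM in day 15 GFP cells against 2.886 to 18.56 CPM in day 15 mCherry cells. Of the 11 genes of dendritic cells and MHC class II, 7 were tested, and none was lower. Ciita, the activator of MHC class II genes, was higher in day 7 GFP cells (1.47), and 5 of the 7 were higher in day 15 GFP cells, among them Cd74 (1.14) and H2-Aa (1.22). No B cell, plasma cell or erythroid marker tested passed between the colours. Of the carcinoma genes, the keratin genes Krt8 and Krt18 were lower in GFP cells on both days (for Krt18 −1.72 on day 7 and −0.98 on day 15) and Cdh1, which encodes E-cadherin, was higher (1.92 on day 7 and 1.36 on day 15). The part of these cell types in the myeloid result was not tested.

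**Figure D5:**
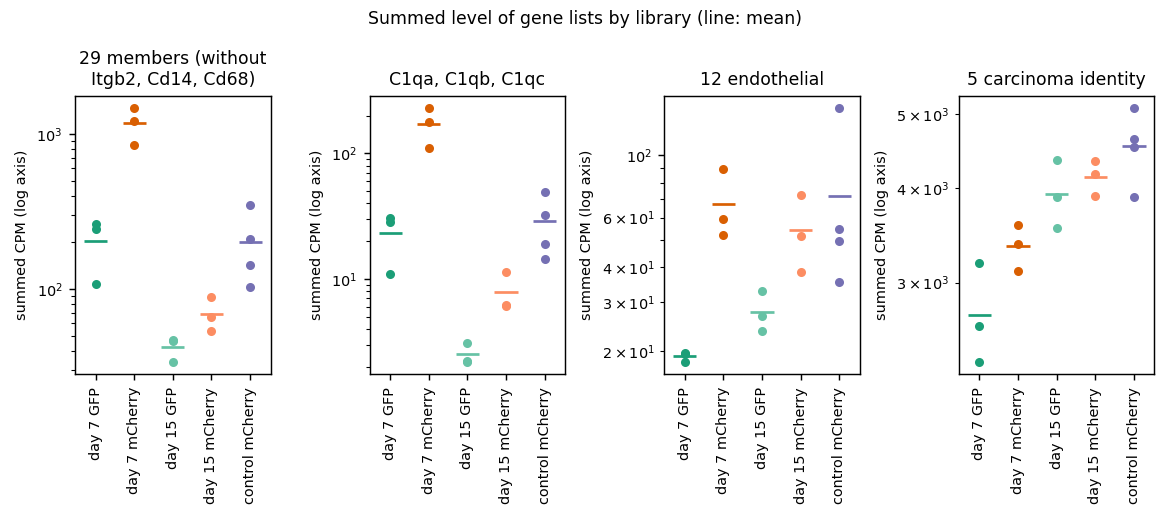
Summed CPM per library (points, by group, log axis) of 29 members without Itgb2, Cd14 and Cd68, of the 3 C1q genes, of 12 endothelial markers and of 5 carcinoma genes. The first 3 sums lie lower in GFP than in mCherry cells on both days, with no overlap. The carcinoma sums, most of them Vim, span 2359 to 5093 CPM in all libraries.

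Neighbouring annotation touches a few members. The second Itgam identifier shares 3450 exon bases with the first and held at most 2 counts in a library. Exons of Csf1r overlap 873 bases of Hmgxb3 on the other strand, and those of Ms4a6c overlap 1088 bases of BE692007. Whether the counting used strand is stated nowhere in the labels, so reads of these pairs cannot be told apart. Fcgr2b and Fcgr3, and Lyz2 and its near copy Lyz1, share sequence, and their counts are uncertain to that extent.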

How the data were processed

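RNA-seq counts of 16 libraries were used (3 day 7 GFP, 3 day 7 mCherry, 3 day 15 GFP, 3 day 15 mCherry and 4 control libraries). Per the labels' protocols, the sequencing company made the deposited raw counts per gene for the authors. The build was mm10, per the submitters' processing notes. No source used here names the aligner, counter, annotation or strand setting. RNA was extracted in either of 2 ways, per the labels' protocols, with no record of which library had which. The authors' deposited tables of comparisons were not used. The 2 count tables hold 49315 rows each, of which 176 without a symbol (at most 0.011% of a library's counts) were left out, as was 1 empty line. Their symbols are identical row by row, so identifiers, given in the day 15 table only, serve for both. Positions are those of GENCODE M21 (GRCm38).

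Genes were filtered with filterByExpr (minimum count 10, minimum total 15), scaled by TMM and tested over the whole table by quasi-likelihood in edgeR 4.0.16 (R 4.3.3), with Benjamini-Hochberg adjustment over all genes tested and a threshold of 0.05. GFP and mCherry cells were compared with tumour as a block, as was the difference between days. Comparisons with the controls had no block. SE was obtained by dividing the log2 fold change by the root of the F statistic, and CPM are plain, without TMM. The script was checked on simulated counts with known changes. These had the same dispersion for every gene and no tumour effect, so they check the code and not its error rate on these data. Replicates are libraries of separate tumours. Counts varied between them beyond counting error, with chi-square values of 5.34 to 92.1 per degree of freedom.

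The labels pair day 15 libraries by tumour. Day 7 and control columns carry numbers that the labels do not, and were matched to groups only. After removing group means, libraries of a shared number correlated at 0.115 to 0.183 on day 7 and 0.105 to 0.276 on day 15, other pairs at −0.214 to 0.0207, so the day 7 numbers were taken as pairs.

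The members and lists were chosen with earlier results of these data known. All members are named. CPM per library are given, on at least 1 day, for the 16 of highest mean, the C1q genes, Ptprc and Csf1r, and of other lists the 2 genes of smallest p may be named. Alternatives were thinned counts, a filter at 50 counts, no filter, DESeq2 1.42.0 or only its size factors, no tumour block, a joint fit of run 2 and leaving out each tumour or library.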

Additional observations from a re-analysis of the deposited data

Results flagged for a closer look

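Mrc1 stood at 9.54 CPM in control library 2, against 1.76, 3.06 and 2.05 CPM in control libraries 1, 3 and 4, farther from the others than Dixon's 95% critical value for 4 samples allows. Of the 32 members examined in the controls it alone passed that value, and chance flags about 1 in 20 groups, although control library 2 was the highest for 30 of the 32 members.

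The effect of colour differed between the days for 4 members in the test of that difference (edgeR quasi-likelihood test, day 15 minus day 7, n = 3 tumours per day). The log2 difference was 1.89 for Lyz2, 2.15 for Apoe, 2.26 for Ctss and 2.48 for Arg1. In each tumour of day 7 the GFP library of these genes lay below the mCherry library. On day 15 Lyz2 and Apoe lay lower in the GFP library in all 3 tumours, Ctss and Arg1 in some. Day and sequencing run cannot be told apart in this difference, although each colour effect is taken within tumours of a single run.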

How the results depend on the processing

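Of the 29 members lower in day 7 GFP cells, 28 kept their call in every alternative that tested them, Cd68 being the exception. So did 4 of the 11 of day 15, 7 of the 20 lower in day 15 GFP cells than in the controls, and 1 (Ctss) of the 4 that differed between the days. Leaving out each tumour or library gave 28 to 29 calls on day 7, 9 to 12 on day 15, 0 in every case for day 15 mCherry cells against the controls, 7 to 22 for day 15 GFP cells against the controls and 2 to 6 for the difference between the days. A filter at 50 counts, which tests fewer members, gave 3 on day 15 and 12 for day 15 GFP cells against the controls. The joint fit of run 2 without the tumour block gave 5 on day 15. DESeq2 gave 8 for day 15 mCherry cells against the controls and 12 for the difference between the days. No filter gave 16 for that difference. The cause was not tested.

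Without the replicate block the calls were 28 on day 7, 9 on day 15 and 1 for the difference between the days, where all genes called numbered 2 in place of 35. No paired analysis was possible because, in the comparisons with the controls, these came from other tumours and their column numbers do not match those in their labels. Over all genes, DESeq2 called 262 in place of 0 for day 15 mCherry cells against the controls, 2953 in place of 1933 for day 15 GFP cells against the controls and 153 in place of 35 for the difference between the days. For that difference no filter called 354 and a filter at 50 counts 14. Leaving out a library moved the calls over all genes to between 1156 and 4558 on day 7 (2656 as reported), to 1736 on day 15 without tumour 3 (2782), to 7 for day 15 mCherry cells without control 4, to between 287 and 2093 for day 15 GFP cells against the controls (1933) and to between 3 and 126 for the difference between the days (35).

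Sign changes touched only members that had not passed. In log2 units, Itgb2 on day 7 was −0.003581 at a filter of 50 counts and −0.0006333 without the block. For the difference between the days, thinned counts gave −1.067 for Ms4a6c and −0.5297 for Cybb, and no block −0.007175 for Ms4a6c. The others came with a library or tumour left out, and span as follows. On day 7, Itgb2 was −0.0748 to 0.09208 and Trem2 −0.3687 to 0.02669. On day 15, Itgb2 was −0.08073 to 0.02308, Ctss −0.04092 to 0.2979, Arg1 −0.2744 to 0.5099 and Cx3cr1 −0.5664 to 0.6038. In day 15 mCherry cells against the controls, Cd33 was −0.7091 to 0.0206, Ms4a6c −0.63 to 0.01112, Itgam −1.487 to 0.07919, Itgb2 −0.01792 to 0.1095 and Aif1 −0.5715 to 0.05378. In day 15 GFP cells against the controls, Cd14 was −0.1881 to 0.1667, Itgb2 −0.05289 to 0.06875 and Trem2 −0.06164 to 0.5667. For the difference between the days, Ms4a6c was −0.3909 to 0.7339, Itgb2 −0.137 to 0.05133, Cybb −0.8058 to 0.7255 and Ccr2 −1.326 to 0.8586.

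Depth limits the low members. On day 15, 8 of 32 fell under the filter. The day difference of Ms4a6c (0.058) has an SE of 10.2, which comes from dividing by the root of a very small F statistic. That SE is therefore no measure of depth. With a tumour left out the difference ran from −0.391 to 0.734.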
